A study of Mus musculus with 54 samples.

Results

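The comparison described here sets 2-day embryoid bodies (EBs) of a scrambled-control embryonic stem cell line against 2-day EBs of its untreated parent line. It comprises 6 of the 54 arrays of the series, namely all 3 labelled SCR day 2 and all 3 labelled ESC day 2, chosen by sample title and not by any measured value. The cells are CGR8, a male murine embryonic stem cell (ESC) line of strain 129. Wild-type (WT) cells received nothing. SCR cells carry a plasmid with a non-targeting hairpin RNA and were kept as a stably transfected, puromycin-resistant mixture of clones. Another line, KD, carries in the same way a hairpin directed at the transcript of Mageb16, an X-linked member of the melanoma antigen family, and its 3 arrays of day 2 are given beside the others where they help to read a value. EBs were formed in hanging drops after the factor that keeps ESCs undifferentiated had been withdrawn, and RNA of whole cultures was hybridised to Affymetrix mouse arrays.

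Undifferentiated ESCs resemble the naive epiblast of the blastocyst. In EBs they first switch off a set of naive transcription factors such as Klf2 and Esrrb, then pass through a formative and a primed epiblast-like state, marked by Fgf5, Otx2 and Zic2, before primitive streak, mesoderm, endoderm and neural genes appear. Fgf, Wnt, Nodal and bone morphogenetic protein signals act during that passage, and Oct4 (Pou5f1) and Sox2 remain on through most of it. A comparison of SCR with WT cells asks what differs between a control line that went through transfection and selection and cells that did not. Only a single SCR population and a single WT population were profiled, so the construct, the selection and differences between the 2 populations cannot be told apart.

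Values are log2 signals of 30939 probe sets, normalised together by robust multi-array averaging (RMA), and each of 14104 genes is represented by its brightest probe set, on average over the series, among those that carry its symbol and no other. A gene or probe set was called when the limma adjusted p of the fit to all arrays lay under 0.05 and the difference was at least 2-fold, which is 1 on the log2 scale. Nothing in the labels tells if the 3 arrays stand for separately grown cultures, so errors and p values describe the spread between arrays only. For each probe set that spread was pooled over all 18 groups of the series, not taken from the day 2 arrays alone. Within the day 2 arrays the spread was small, with a median standard deviation (SD) of 0.104 in WT and 0.102 in SCR. Correlations between arrays were 0.9955 to 0.9968 within WT, 0.9957 to 0.9968 within SCR and 0.9859 to 0.9903 between both groups. Replicate 3 was the middle of the 3 values in 42.7% of probe sets in WT and 43% in SCR day 2 arrays, and it was the array most often in the middle in 17 of the 18 groups of the series. With 3 like and independent arrays each would be the middle about equally often. An array that tends to lie between the others narrows the spread, so errors and p values may be too small. Arrays read bulk RNA, so fewer cells of a kind and less RNA per cell cannot be told apart.

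The labels were first checked on the targeted gene. Mageb16 read 9.02, 8.76 and 8.93 in the WT arrays, 9.99, 10.15 and 10.14 in the SCR arrays and 5.64, 5.04 and 5.75 in the KD arrays of day 2. The KD line lay lowest and the scrambled line lay highest, without overlap. Mageb16 was therefore not lower in SCR than in WT but 1.19 log2 (SE 0.17, limma adjusted p = 9.38e-07) higher, or 2.28-fold. In undifferentiated cells the same difference had been 0.12 (adjusted p = 0.764), and at day 4 it was 2.47. The signal of WT cells fell by 1.05 log2 from day 0 to day 2, while that of SCR cells moved by 0.02.

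In 2-day EBs, SCR differed from WT in 367 of the 14104 genes. Of these, 121 were higher in SCR, which is 0.858% of the genes tested, and 246 were lower, which is 1.74%. Counted as probe sets the numbers were 198 higher and 398 lower, together 1.93% of the probe sets, and 245 and 316 when each array was centred on its own median. Without any minimum fold, 3228 genes passed the adjusted p. The median difference over all probe sets was -0.01. The 3 SCR arrays lay wholly above the 3 WT arrays for all 121 genes called higher and wholly below for all 246 called lower, beside 18.6% and 25.1% of all genes that lay apart in these directions. Differences over 4-fold were found in 6 of the 121 higher and 16 of the 246 lower genes.

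**Figure D1:**
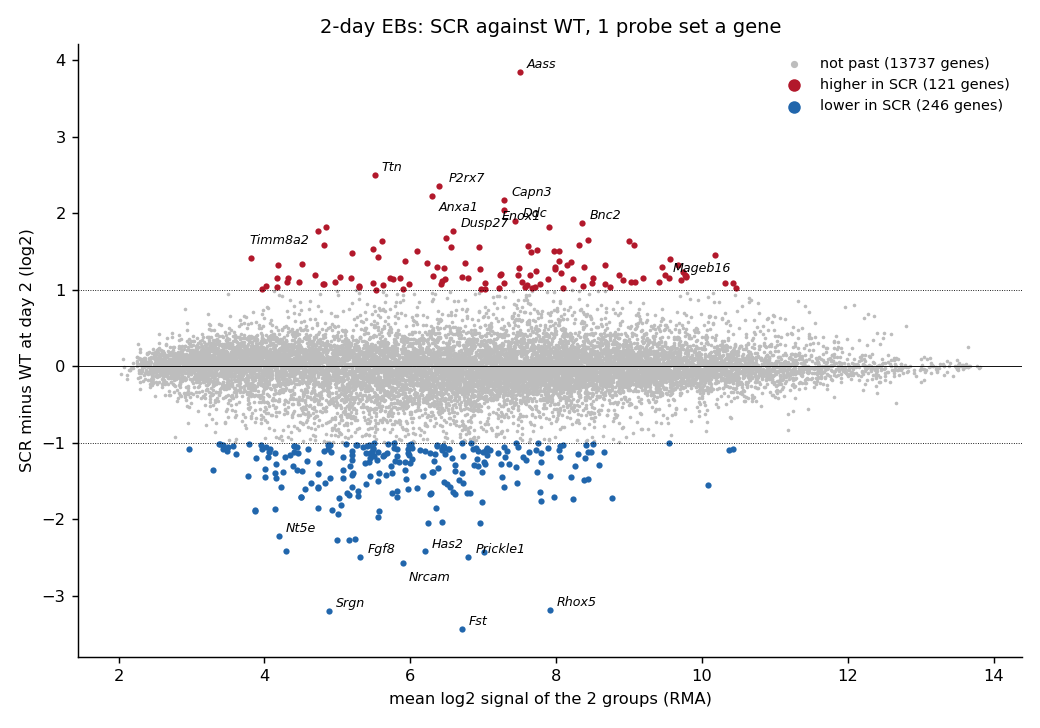
Difference of SCR from WT at day 2 (log2, y axis) against the mean log2 signal of both groups (x axis), each point 1 gene. Red points are the 121 genes called higher and blue points the 246 called lower in SCR, the dotted lines mark a 2-fold difference, and Aass (3.85) and Fst (-3.43) lie farthest from 0.

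The largest rise was that of Aass, the bifunctional enzyme that starts lysine breakdown. Aass read 5.74, 5.49 and 5.51 in WT and 9.43, 9.37 and 9.48 in SCR arrays, a difference of 3.85 log2 (SE 0.23, limma adjusted p = 1.04e-15) or 14.4-fold. The KD arrays lay between them at 6.79, 6.68 and 6.78. The gap existed before differentiation, at 2.30 in undifferentiated cells, and reached 4.77 at day 4. P2rx7, an ATP-gated ion channel, also kept a difference from day 0: it was 2.36 higher in SCR at day 2 (WT 5.21, 5.05 and 5.4; SCR 7.91, 7.25 and 7.58) and 2.33 higher at day 0. From day 0 to day 2 P2rx7 changed by -1.70 in WT and by -1.67 in SCR.

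The other large rises opened after day 0. Anxa1, a calcium-dependent phospholipid-binding protein, read 5.53, 4.98 and 5.04 in WT and 7.54, 7.22 and 7.46 in SCR, a difference of 2.22 (SE 0.28, adjusted p = 9.48e-08) that had been 0.20 at day 0. Its other probe set read 3.11 in WT and 3.06 in SCR and did not differ detectably. Capn3, a calpain protease best known from muscle, read 6.71, 5.72 and 6.17 in WT against 8.44, 8.25 and 8.43 in SCR, and its difference changed from -0.53 at day 0 to 2.17 at day 2. From day 0 both signals went up in SCR and not in WT. Capn3 changed by 2.59 from day 0 to day 2 in SCR and by -0.12 in WT, and Anxa1 by 0.84 and -1.19. The day 0 arrays of Anxa1 were scattered, with an SD of 0.66 in WT and 0.89 in SCR. Its day 0 difference and its changes from day 0 are therefore not exact.

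Ddc, which makes dopamine and serotonin from their amino acid precursors, was 1.90 higher in SCR (SE 0.11, adjusted p = 1.34e-16), with WT arrays at 6.73, 6.24 and 6.49 and SCR arrays at 8.44, 8.30 and 8.43. Bnc2, a zinc finger gene, was 1.88 higher and the oxidase gene Enox1 1.81 higher. Dusp27, an atypical dual-specificity phosphatase gene, had exactly the same mean in both lines at day 0 and was 1.77 higher in SCR at day 2. In this group the WT signal went down from day 0 to day 2, with changes of -1.37 for Ddc, -1.43 for Bnc2, -2.19 for Enox1 and -1.77 for Dusp27, whereas SCR changed by 0.32, -0.09, -0.66 and 0.00. The non-coding RNA Eprn followed the same course (2.04 higher at day 2), and Fam183b was 1.82 higher from a WT signal under the lower quartile of its arrays, where the size of a difference is not exact.

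Ttn, which encodes the giant sarcomere protein titin, was 2.5 higher in SCR (WT 4.99, 3.84 and 3.95; SCR 7.01, 6.51 and 6.76). Only 2 of its 6 probe sets passed, and the mean of all 6 differed by 0.70, which was not past the threshold. No other of the 15 measured cardiac muscle genes passed. Timm8a2, a mitochondrial import chaperone gene, turned round: it was 1.17 lower in SCR at day 0 and 1.76 higher at day 2. Its WT signal of day 2 lay under the lower quartile, so the sizes are not exact, and its probe set may cross-react with related transcripts, as its name suffix marks. The probe sets read for Dnmt3l, Cubn, Wnt3, Sox17 and Vldlr below carry such a suffix as well.

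**Figure D2:**
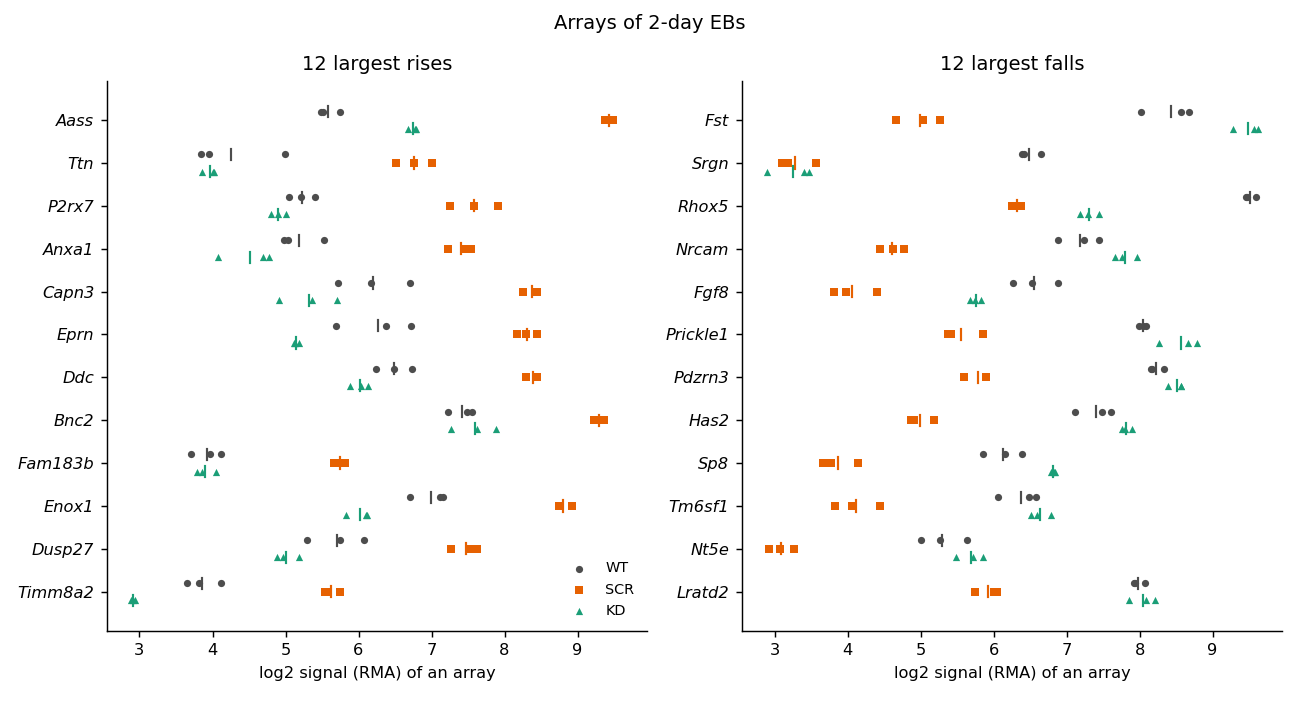
Log2 signal of each day 2 array (x axis) for the 12 genes with the largest rise (left) and the 12 with the largest fall (right) in SCR against WT, with WT as circles, SCR as squares, KD as triangles and vertical bars for group means. The 24 genes were chosen among those whose SCR and WT arrays do not overlap, and KD arrays overlap SCR arrays only for Srgn.

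The letters around the transcription starts of the genes with the largest rises are shown for their CG dinucleotides, the pair at which mammalian DNA is methylated. The RefSeq promoter table for GRCm38.p6, which gives 250 bases before and 50 after each start, held an entry for all 12 of these genes. In 10 of them no window reached 10 CG dinucleotides, and the exceptions were Timm8a2 with 10 and Enox1 with 42. Over all 11299 genes with an entry (80.1% of the genes measured), 21.7% had a mean under 10. In 10 of the 12 the WT signal lay at or under the median gene (6.94). Among all genes of such signals the share under 10 was higher, at 36.8% of the 5463 with an entry. Entries covered 77.4% of these genes. Smaller rises included windows with more CG dinucleotides, such as 32 in Klf2, 23 in Manba and 18 in Lgals3. Of the 12 largest falls 7 had an entry, too few for a count, and these were mixed: Srgn had 4 and 8 in its 2 windows, Rhox5 5, Nt5e 23, Pdzrn3 32, Nrcam 37, Prickle1 20 to 39 and Sp8 2 to 32 over 3 windows. These counts describe sequence, were made after the differences had been seen and were not tested. Entries covered 94 of the 121 genes higher in SCR and 189 of the 246 lower. No share was counted over these, so the count speaks for the 12 largest rises alone. Aass (chr6:23132937-23133236, minus strand), Anxa1 (chr19:20390622-20390921, minus) and Bnc2 (chr4:84610148-84610447, minus) are shown as large rises, and Nrcam (chr12:44328635-44328934, plus) and Rhox5 (chrX:37754358-37754657, plus) as large falls described below, with each CG in capitals and all read 5′ to 3′ along the gene.
Aass: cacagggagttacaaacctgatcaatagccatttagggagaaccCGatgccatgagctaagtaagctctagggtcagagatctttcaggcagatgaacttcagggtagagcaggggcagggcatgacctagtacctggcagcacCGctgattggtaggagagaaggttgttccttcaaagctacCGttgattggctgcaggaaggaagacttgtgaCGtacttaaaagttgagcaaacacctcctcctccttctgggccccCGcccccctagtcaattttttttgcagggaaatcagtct
Anxa1: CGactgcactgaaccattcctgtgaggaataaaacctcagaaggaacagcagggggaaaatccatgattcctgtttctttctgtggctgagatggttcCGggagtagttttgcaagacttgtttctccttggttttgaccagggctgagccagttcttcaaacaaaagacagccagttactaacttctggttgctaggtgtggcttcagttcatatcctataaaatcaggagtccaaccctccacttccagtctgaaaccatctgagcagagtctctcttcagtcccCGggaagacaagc
Bnc2: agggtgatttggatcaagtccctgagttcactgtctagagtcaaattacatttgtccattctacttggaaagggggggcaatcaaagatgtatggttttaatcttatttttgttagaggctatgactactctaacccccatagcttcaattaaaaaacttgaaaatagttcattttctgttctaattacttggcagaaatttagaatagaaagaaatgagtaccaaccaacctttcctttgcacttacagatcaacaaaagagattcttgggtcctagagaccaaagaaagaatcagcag
Nrcam: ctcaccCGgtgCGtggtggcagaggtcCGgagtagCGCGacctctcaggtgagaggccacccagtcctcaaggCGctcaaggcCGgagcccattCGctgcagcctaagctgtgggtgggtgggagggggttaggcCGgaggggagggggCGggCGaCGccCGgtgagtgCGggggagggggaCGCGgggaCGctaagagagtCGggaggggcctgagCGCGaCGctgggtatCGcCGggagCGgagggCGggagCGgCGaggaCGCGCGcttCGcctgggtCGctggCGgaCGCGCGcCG
Rhox5: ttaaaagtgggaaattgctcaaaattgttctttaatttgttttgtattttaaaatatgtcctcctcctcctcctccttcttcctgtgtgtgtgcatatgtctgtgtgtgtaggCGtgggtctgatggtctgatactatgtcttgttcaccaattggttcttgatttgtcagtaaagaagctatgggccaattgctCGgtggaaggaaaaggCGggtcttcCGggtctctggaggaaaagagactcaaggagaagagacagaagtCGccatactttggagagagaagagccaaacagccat
The windows of Aass, Anxa1 and Bnc2 hold 5, 3 and 0 CG dinucleotides, and those of Nrcam and Rhox5 hold 37 and 5.

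The largest fall was that of Fst, which encodes follistatin, a secreted binder of activin and of bone morphogenetic proteins. Fst read 8.02, 8.68 and 8.57 in WT, 4.66, 5.27 and 5.04 in SCR and 9.28, 9.62 and 9.56 in KD arrays. SCR was 3.43 log2 below WT (SE 0.29, limma adjusted p = 1.08e-11), or 10.8-fold, and both probe sets of the gene passed. The difference had been -0.37 at day 0 and was 0.20 at day 4. WT cells raised Fst by 1.69 between day 0 and day 2, and in SCR cells it changed by -1.38 over the same interval. Neither the day 0 nor the day 4 difference passed.

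Other large falls had this shape, a gene whose signal rose by day 2 in WT and less or not in SCR. Nrcam, a neuronal cell adhesion molecule, read 6.88, 7.44 and 7.24 in WT and 4.77, 4.45 and 4.62 in SCR, a difference of -2.57 (SE 0.23, adjusted p = 3.23e-11). Only 2 of its 4 probe sets passed, and the mean of all 4 differed by -1.26, which was past the threshold. Fgf8, a ligand of the gastrulating embryo, read 6.27, 6.88 and 6.53 in WT and 3.98, 3.81 and 4.41 in SCR, a difference of -2.49 (SE 0.29, adjusted p = 2.07e-08). Has2, the main hyaluronan synthase of embryos, read 7.12, 7.61 and 7.49 in WT and 4.87, 5.18 and 4.91 in SCR. From day 0 to day 2 these 3 genes changed by 4.01, 2.78 and 3.93 in WT, against 1.51, 0.09 and 1.23 in SCR. Their differences at day 0 had been -0.07, 0.19 and 0.28, none past the threshold.

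The planar polarity gene Prickle1 was at -2.49, with 1 of 2 probe sets past, and had already been at -1.54 at day 0. Pdzrn3, a ubiquitin ligase gene, was at -2.43, the zinc finger gene Sp8 at -2.27 and the transmembrane gene Tm6sf1 at -2.26. The other probe set of Tm6sf1 was at -0.93 and did not pass. Lratd2 was at -2.05 and, like Prickle1, had passed at day 0 (-1.64), with no detectable change of the difference from then to day 2 (adjusted p = 0.448). The SCR arrays of day 2 lay at 5.59 to 5.89 for Pdzrn3, 3.67 to 4.14 for Sp8, 3.83 to 4.45 for Tm6sf1 and 5.74 to 6.05 for Lratd2. At day 4 the differences of these 4 genes were between -0.37 and 0.26, and none passed. Nt5e, the ectoenzyme CD73 that makes adenosine from AMP, was at -2.21 at day 2 and at 1.5 at day 4. Nrcam likewise changed side, to 2.06 at day 4, while Has2 stayed low in SCR at -2.21.

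A second kind of fall was present from the start. Srgn, the core protein of secretory granule proteoglycans, read 6.42, 6.39 and 6.65 in WT, 3.10, 3.57 and 3.19 in SCR and 3.40, 2.90 and 3.47 in KD arrays. Its difference was -3.20 (SE 0.25, limma adjusted p = 1.18e-12) at day 2, -3.21 at day 0 and -2.11 at day 4. Here WT alone stood apart from both transfected lines. SCR signals of Srgn, and at day 2 also those of Fgf8, Sp8, Tm6sf1, Nt5e, Cubn, Cdh11 and several smaller falls, lay under the lower quartile of the arrays, so the size of these differences, and any likeness between days, is not exact. Rhox5, an X-linked homeobox gene, read 9.59, 9.46 and 9.47 in WT, 6.33, 6.25 and 6.38 in SCR and 7.29, 7.19 and 7.44 in KD arrays. The Rhox5 gap narrowed with time, from -4.30 at day 0 to -3.19 at day 2 and -1.26 at day 4.

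**Figure D3:**
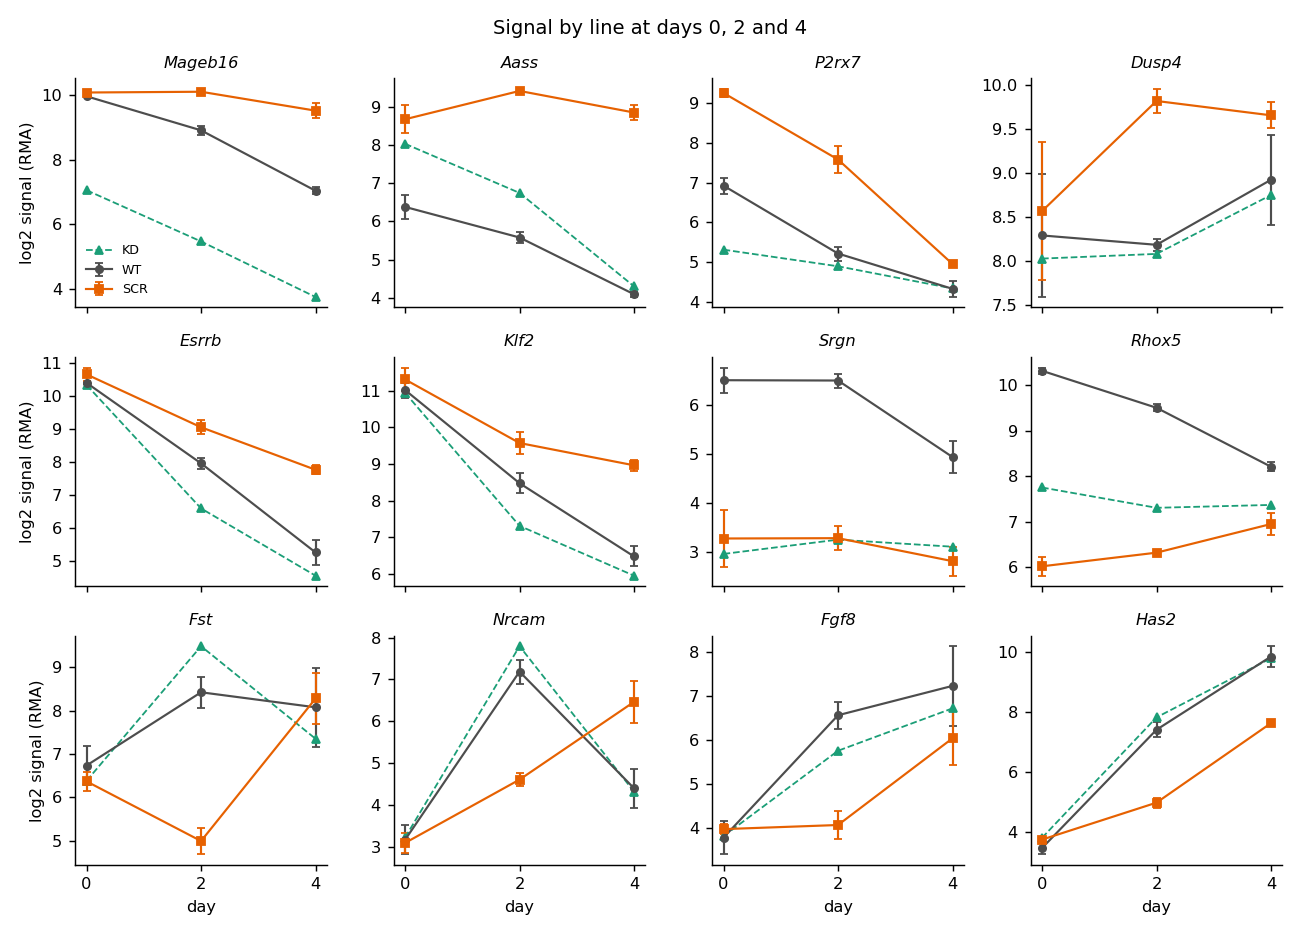
Mean log2 signal (y axes) at days 0, 2 and 4 (x axes) of 12 genes in WT, SCR and KD cells, with SD bars over 3 arrays for WT and SCR and means alone for KD. The SCR difference of Srgn was -3.21 on day 0 and -3.20 at day 2, from an SCR signal under the lower quartile of the arrays, and those of Fst, Nrcam, Fgf8 and Has2 lay between -0.37 and 0.28 on day 0 and between -3.43 and -2.42 at day 2.

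The day 0 and day 4 comparisons of SCR with WT rest on other arrays and can be set beside that of day 2. At day 0, 17 genes were higher (0.121%) and 110 lower (0.78%), and at day 4, 767 were higher (5.44%) and 743 lower (5.27%). Of the 121 genes higher at day 2, 5 were higher at day 0 as well, which is 4.13% of the day 2 list and 29.4% of the day 0 list. Of the 246 lower genes, 32 were lower at day 0, or 13% of the day 2 list and 29.1% of the day 0 list. At day 4, 65 of the 121 higher genes were again higher (53.7%) and 3 were lower, whereas 71 of the 246 lower genes were again lower (28.9%) and 44 were higher (17.9%). The same lines share these days, so the lists are not independent samples of a control line.

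Whether the difference changed from day 0 to day 2, including gaps that narrowed, was tested as its own contrast. It passed for 331 genes, 161 upward (1.14%) and 170 downward (1.21%), or 569 probe sets (1.84%), a number that came to 150 when all arrays numbered 3 were left out of the fit. Among the 121 higher genes 65 had opened further in that test, and among the 246 lower genes 107 had. The largest changes upward were those of Timm8a2 (2.93), Capn3 (2.70) and Anxa1 (2.02). Also among the largest was Tspan8, a tetraspanin, which changed by 2.12 because its difference went from -2.79 at day 0 to -0.68 at day 2, both lines then reading under the lower quartile. From day 2 to day 4 the difference changed upward in 869 genes (6.16%) and downward in 621 (4.4%). The difference of 131 of the 246 lower genes and 27 of the 121 higher genes moved back toward 0 or past it, beyond the threshold, while 21 and 18 widened. The 121 and 246 genes were called from day 2 arrays that also enter both contrasts. That choice alone favours opening by day 2 and closing after it, so these counts cannot tell how common either was.

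Naive pluripotency genes were described as a group of 22 measured members. Of these, 5 were higher in SCR and none lower, where 0.858% and 1.74% of all genes were, and the median difference was 0.53, beside -0.01 over all probe sets. They were Manba, a lysosomal mannosidase used as a naive marker, at 1.29, the nuclear receptor Nr0b1 at 1.16, the transcription factors Klf2 at 1.10 and Esrrb at 1.09, and Gbx2 at 1.09, which was named after its value had been seen. Esrrb read 8.11, 7.78 and 7.96 in WT and 9.22, 8.81 and 9.10 in SCR (SE 0.22, adjusted p = 0.000194), and 6.86, 6.24 and 6.66 in KD. Klf2 read 8.78, 8.27 and 8.37 in WT, 9.88, 9.27 and 9.57 in SCR and 7.54, 6.95 and 7.43 in KD. SCR arrays were highest and KD arrays lowest for both. All of these genes declined from day 0 in both lines except Gbx2 in SCR, which stayed level (-0.04): Esrrb changed by -2.44 in WT and -1.60 in SCR, Klf2 by -2.55 and -1.74 and Nr0b1 by -2.52 and -1.44. At day 0 their differences had been 0.29 or less, and at day 4 they were 2.03 to 2.76.

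Other naive genes moved less or the other way, without passing. Nr5a2 was at 0.86, Tfcp2l1 at 0.72, Klf4 at -0.39, Tbx3 at -0.26 and Socs3, a feedback inhibitor of leukemia inhibitory factor signalling, at -0.83. The call of Esrrb was lost with the mean of its 3 probe sets (0.88) and without any array numbered 3, and that of Klf2 was lost without SCR replicate 1 (0.95) and without WT replicate 2 (1.00).

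Of the 15 core pluripotency genes 1 was higher and none lower, beside 0.858% and 1.74% of all genes. It was Dnmt3l, the catalytically inactive partner of the de novo DNA methyltransferases. Its only probe set may cross-react with related transcripts, as its name suffix marks. Dnmt3l read 9.76, 9.16 and 9.43 in WT, 10.95, 10.85 and 10.91 in SCR and 8.52, 8.43 and 8.49 in KD, a difference of 1.45 (SE 0.21, adjusted p = 1.29e-06). The defining factors stayed high in both lines: Pou5f1 read 11.79, 11.77 and 11.77 in WT and 11.54, 11.51 and 11.57 in SCR. Sox2 was at 0.71 and Nanog at -0.66, both with an adjusted p under the limit (0.000289 and 0.0231) and under 2-fold. Nanog, often grouped with the naive factors, lay on the other side of WT from Esrrb and Klf2, with SCR arrays at 9.74, 9.48 and 9.66 and WT arrays at 10.14, 10.42 and 10.29.

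Formative and primed epiblast genes leaned the other way. Of 21 measured, 5 were lower and 1 was higher in SCR, beside 1.74% and 0.858% of all genes, with a median of -0.58. Zic2 read 8.66, 8.60 and 8.78 in WT and 6.71, 7.0 and 7.04 in SCR, a difference of -1.76 (SE 0.30, adjusted p = 2.72e-05), and the zinc finger gene Sall2 was at -1.48. Wnt8a, a Wnt ligand, was at -1.46, Sox3, a Sox2 relative of the early neural plate, at -1.14 and the kinase gene Pim2 at -1.08, the last named after its value had been seen. WT had raised Sall2 by 5.20, Zic2 by 2.79 and Sox3 by 2.69 since day 0, and SCR by 3.89, 1.64 and 1.44, so these genes did come on in SCR, to a lower level. At day 4 all 5 were higher in SCR than in WT, by 1.2 to 4.05.

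Fgf5, the classical marker of that state, was at -0.91 (adjusted p = 0.0022), with WT arrays at 8.94 to 9.25 and SCR arrays at 8.15 to 8.27. Otx2 was at -0.04 and had risen by 2.86 in WT and 2.93 in SCR, with no detectable difference between the lines. The exception upward was Grhl2, an epithelial transcription factor, named after its value had been seen, at 1.10 at day 2 and 1.02 already at day 0.

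Among 21 primitive streak and nascent mesoderm genes, Fgf8, Eomes (-1.25) and Wnt3 (-1.02) were lower in SCR and none was higher. This stands beside 1.74% and 0.858% of all genes, and the median was -0.02. Eomes, a T-box factor of the streak, read 7.17, 8.0 and 7.75 in WT and 6.50, 6.39 and 6.27 in SCR, and in SCR it had moved by 0.12 since day 0. The call of Eomes was lost without any array numbered 3. Wnt3 lay under the lower quartile of the arrays in both lines, and its call was lost in several alternatives. Mixl1 (-0.08), Mesp1 (-0.04) and Gsc (-0.10) did not differ detectably at day 2. Of 14 cardiac and lateral mesoderm genes none passed in limma at day 2 (6 at an unadjusted p under 0.05), against 11 lower in SCR at day 4.

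Neural genes held 6 lower members and 1 higher of 19, beside the same 1.74% and 0.858% of all genes, with a median of -0.21. The homeobox gene Irx3 was at -1.61 (WT 6.84, 6.84 and 6.63; SCR 4.82, 5.24 and 5.43), the zinc finger gene Zic1 at -1.46, the RNA-binding protein gene Msi1 at -1.40 and the fatty acid binding protein gene Fabp7 at -1.36. Neurod1 (-1.31) and the filament gene Nes (-1.07) also passed, and Pax6 (1.05) was higher. None of the 19 had passed at day 0. Sox1, a defining factor of the early neural plate, was at -0.04, and the call of Msi1 was lost with the mean of its 2 probe sets (-0.62). That of Fabp7 was lost without any array numbered 3.

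**Figure D4:**
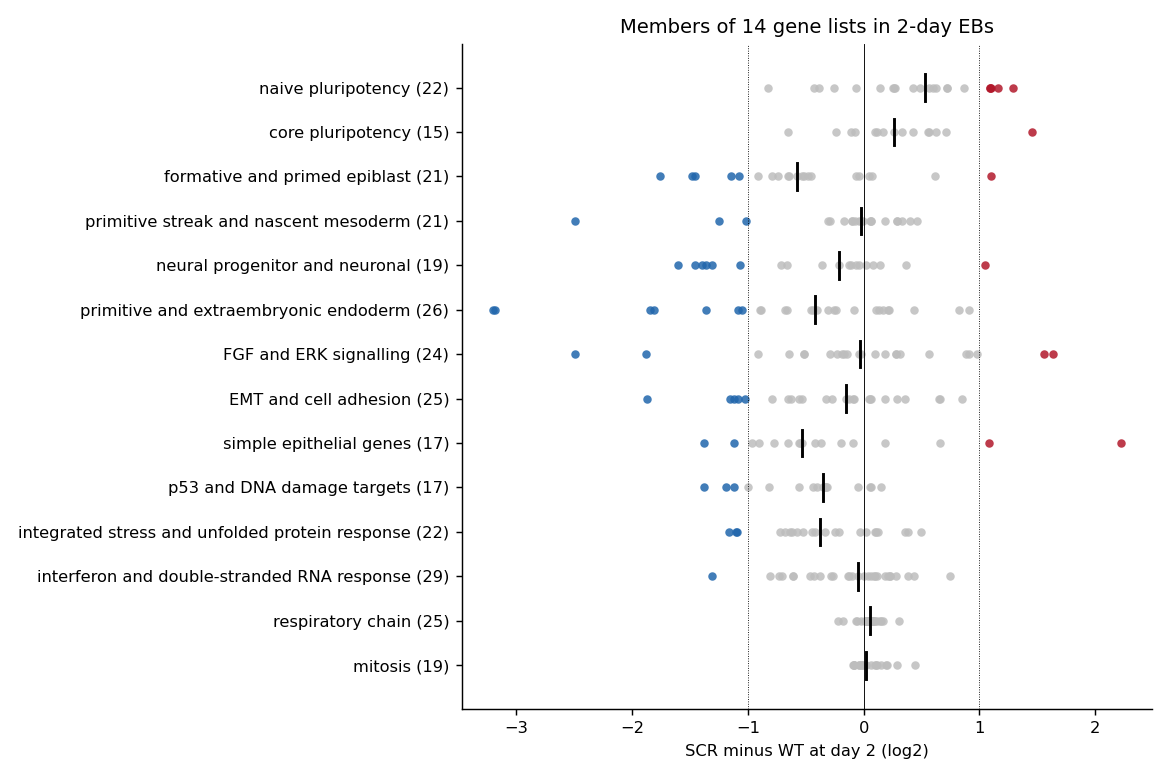
Difference of SCR from WT at day 2 (log2, x axis) of the measured members of 14 gene lists (y axis, number of members in brackets), with genes called higher in red, called lower in blue and not called in grey, and a black bar at each median. The medians of the naive and the formative lists lie at 0.53 and -0.58.

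Genes of primitive and extraembryonic endoderm gave the largest number of falls, 7 of 26 (beside 1.74% of all genes) with a median of -0.42, and 8 had been lower at day 0. Beside Srgn and Rhox5 they were the basement membrane collagens Col4a1 (-1.85) and Col4a2 (-1.37), the endocytic receptor Cubn (-1.81), the collagen chaperone gene Serpinh1 (-1.09) and Sox17 (-1.05). Col4a1 read 7.19, 7.35 and 7.30 in WT and 5.30, 5.66 and 5.33 in SCR, and its difference had been -1.61 at day 0. The other probe sets of Col4a1 and Cubn were at -0.44 and -0.62 and did not pass. The defining factors Gata4 (0.21) and Gata6 (-0.40) did not pass at day 2, and Sox17 was under the lower quartile in both lines. The other of its 2 probe sets was at 0.12, and its call was lost in 5 of 17 alternatives. The summed signal of the list ranged from 12.14 to 12.18 in WT and from 11.96 to 12.10 in SCR arrays (log2 of the sum). How far a small number of endoderm-like cells had a part in these falls was not tested.

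In the Fgf and ERK group of 24 genes, 2 were higher and 2 lower, with a median of -0.03. This and the further signalling groups are read beside 0.858% of all genes called higher and 1.74% called lower. Dusp4, which encodes a phosphatase that switches off ERK, read 8.25, 8.11 and 8.20 in WT and 9.98, 9.72 and 9.77 in SCR, a difference of 1.64 (SE 0.25, adjusted p = 3.75e-06). Fgfbp1, a carrier of Fgf ligands, was at 1.55 and its relative Fgfbp3 at -1.88 beside Fgf8. Other targets of ERK did not pass, with Dusp6 at -0.19, Spry2 at -0.02, Spry4 at 0.88 and Egr1 at -0.04. Bone morphogenetic protein genes gave 1 call in 19, Fst, with Id3 at -0.96 and Smad6 at -0.91 under the 2-fold limit. Wnt signalling gave 2 falls in 26, Wnt8a and Wnt3, and none of 19 Nodal and TGF-beta genes or of 18 leukemia inhibitory factor, JAK and STAT genes passed in limma (7 and 8 at an unadjusted p under 0.05).

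Adhesion genes followed in part. In the group of 25 for epithelial-mesenchymal transition and adhesion 5 were lower and none higher, beside 1.74% and 0.858% of all genes: the mesenchymal cadherin Cdh11 (-1.88), the tight junction genes Ocln (-1.16) and Cldn7 (-1.12), the protease gene Mmp2 (-1.08) and Twist1 (-1.03, named after its value had been seen). Cdh11 read 4.32, 5.17 and 4.95 in WT and 2.64, 3.14 and 3.03 in SCR. Its other probe set was at -0.24 and did not pass. The list holds genes of opposite roles, and both epithelial and mesenchymal members were among the falls. Cdh1 (E-cadherin) was at -0.56 and Cdh2 (N-cadherin) at -0.79. Simple epithelial genes had a median of -0.53 over 17 members, with Perp (-1.38) and Cldn7 lower, Anxa1 and Lgals3 (1.08) higher, and the keratin genes Krt8 and Krt18 at -0.97 and -0.53.

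Target genes of p53 held 3 falls among 17, where 1.74% of all genes fell, and a median of -0.35. Cdkn1a, the cell cycle inhibitor p21, read 9.20, 9.21 and 9.24 in WT and 8.05, 8.17 and 8.06 in SCR, a difference of -1.12 (SE 0.07, adjusted p = 8.31e-15). Btg2, an antiproliferative gene, was at -1.19 and Perp, a desmosomal p53 target, at -1.38. Mdm2 and Ccng1 were at -0.34 and -0.32, under 2-fold. In the integrated stress group of 22, also beside 1.74%, Atf3 (-1.17), the serine synthesis enzyme Psat1 (-1.09) and the lipoprotein receptor Vldlr (-1.10) were lower, and the median was -0.38. Only 2 of the 6 probe sets of Vldlr passed, and its call was lost with their mean (-0.79).

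Imprinted genes held 3 falls of 28 (beside 1.74% of all genes), Magel2 (-1.48), Nnat (-1.45) and Ndn (-1.01), with a median of -0.0034. Magel2 and Ndn belong to the Mage family and are neighbours in the same imprinted cluster, and apart from Mageb16 they were the only called members among the 10 of the family that were measured. Magel2 read 7.41, 7.66 and 7.18 in WT and 6.07, 5.94 and 5.79 in SCR. Ndn read 8.86, 9.13 and 9.03 against 7.92, 8.08 and 7.98. Ndn passed in 3 of its 6 probe sets, and its call was lost under several alternatives.

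Groups that bear on a hairpin construct are read beside the 0.858% of all genes called higher and the 1.74% called lower. Of 29 genes of the interferon and double-stranded RNA response 1 passed, the immunoproteasome subunit Psmb8 at -1.31, and the median was -0.05. Without a minimum fold 10 of them were lower and 2 higher by the adjusted p. Ifit1 was at 0.21, Oas1a at -0.70 and the interferon-stimulated genes Usp18 and Rsad2 at -0.05 and 0.00. None of 16 small RNA pathway genes passed in limma (8 at an unadjusted p under 0.05), with Dicer1 at -0.05, Ago2 at -0.39 and Drosha at -0.22. No gene passed either among 25 of the respiratory chain (median 0.05), 19 of mitosis (0.02), 20 of DNA replication (-0.03), 28 of nuclear pores (0.00) or 16 of cholesterol synthesis (-0.14). At an unadjusted p under 0.05 limma gave 6, 4, 2, 5 and 7 of these genes.

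Markers of cells that could be mixed into a culture were also counted. They and the remaining groups are read beside 0.858% of all genes called higher and 1.74% called lower. Of 20 fibroblast and mesenchyme genes 1 passed, Thy1 at -1.26 (already -1.62 at day 0), with a median of 0.11. Of 14 macrophage and blood genes and of 16 liver and gut genes none passed in limma, with 1 and 0 at an unadjusted p under 0.05. Among 14 endothelial genes Plvap was at 1.09 and Flt1 at -1.06, but 1 of the 4 probe sets of Flt1 passed, their mean was -0.46 and the call was lost in 6 of 17 alternatives. Of 4 Y-linked genes Uba1y was at 1.01 and the others were at 0.26 to 0.64, and Ftx, a non-coding gene beside the X inactivation centre, was at -1.05, with the calls of Uba1y and Ftx lost in 4 and 5 of 17 alternatives. Single falls in other groups were Hoxd1 (-1.44) of 17 Hox genes, Rbp4 (-1.16) of 16 retinoid genes, Vegfa (-1.14) of 25 glycolysis and hypoxia genes, and Usp17la (-1.71, at -1.98 on day 0) and Arg2 (-1.02) of 8 genes of the 2-cell-like state. The call of Vegfa was lost with the mean of its 2 probe sets (-0.52), and that of Arg2 in 6 of 16 alternatives.

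The KD line, which went through the same transfection and selection with another hairpin, was read beside SCR at day 2. Both comparisons use the same 3 WT arrays, so the values are set out only side by side. KD minus WT was 1.06 for Fst, 0.61 for Nrcam, 0.41 for Has2, 0.53 for Prickle1 and 0.68 for Sp8, where SCR minus WT was -3.43, -2.57, -2.42, -2.49 and -2.27. It was -1.36 for Esrrb, -1.17 for Klf2 and -0.97 for Dnmt3l, where SCR minus WT was 1.09, 1.10 and 1.45. For Srgn, Rhox5, Cubn and Usp17la the KD line was low together with SCR, at -3.23, -2.20, -2.05 and -1.85. WT arrays were thus the highest for these last 4 genes, and WT lay between SCR and KD for Fst, Nrcam, Has2, Esrrb and Klf2. KD did not differ detectably from WT in limma for Nrcam, Has2 and Sp8 (adjusted p = 0.129, 0.242 and 0.108). For Fst, Esrrb and Klf2 the limma adjusted p of KD minus WT was 0.0219, 2.15e-05 and 1.62e-05.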

How the data were processed

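The authors hybridised RNA of 54 samples to Affymetrix mouse arrays and deposited log2 values of 30939 probe sets made by RMA, which per the labels' processing notes used Expression Console and Partek 6.6. The methods text names R packages for this step. These deposited log2 values were used as they are, between 1.65 and 14.03, with array medians of 5.94 to 6.26. Genes were named through the annotation of the array type: 25596 probe sets carried a single symbol, 685 carried more than 1 and 4658 carried none.

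In R 4.3.3, limma 3.58.1 fitted the 18 means of line and day to all 54 arrays with moderated variances (eBayes) and no block. Each contrast had its p values adjusted across the whole set of probe sets (Benjamini-Hochberg). Errors of differences are moderated standard errors. The fit was tested on simulated data. The number of arrays limits the precision, and small differences between signals under the lower quartile (4.23 to 4.27 on day 2 arrays) are not exact.

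Named genes were Mageb16, the 12 largest rises and falls, up to 4 called members a list, the genes the study names and the 4 largest changes of the difference between days. The 12 rises and 12 falls were taken among called genes whose SCR and WT arrays did not overlap. Further list members are given with their values in the text and do not enter the counts of named genes. The comparison, the 41 gene lists and the motif searched were chosen with earlier results of these data known. Of 866 list entries 760 were measured. Alternatives covered normalisation, dim probe sets, the replicate number as a block, array weights, variance model, fold rule, arrays used, each array left out and means over probe sets. CG dinucleotides were counted in RefSeq promoter windows matched by symbol.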

Additional observations from a re-analysis of the deposited data

Results flagged for a closer look

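For 45 of the 94 named genes the difference between SCR and WT cells was itself different at day 2 and at day 0, by the limma contrast of both differences (adjusted p under 0.05 and at least 2-fold), beside 331 of all 14104 genes (1.14% upward and 1.21% downward). Many of the named genes were chosen for a large difference at day 2 or a large change between these days, so the count says nothing about how common such changes are. The values below are the day 2 difference less the day 0 difference, on the log2 scale. Leaving all arrays numbered 3 out took the number of probe sets past this contrast from 569 to 150, and 131 of the 569 kept their call. Most calls of this contrast thus depend on those arrays, and which of the genes below keep theirs was not examined.

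Of the genes that were lower in SCR at day 2, the change was -3.07 for Fst, -2.70 for Has2, -2.69 for Fgf8 and -2.50 for Nrcam. It was -2.34 for Sp8, -2.21 for Tm6sf1, -1.90 for Cdh11 and -1.69 for Pdzrn3. Neural and epiblast genes were among these falls, with -1.81 for Irx3, -1.58 for Wnt8a, -1.54 for Fabp7, -1.31 for Sall2, -1.25 for Sox3, -1.25 for Msi1 and -1.12 for Zic1. Streak and Hox genes followed with -1.22 for Eomes, -1.04 for Wnt3 and -1.14 for Hoxd1. The imprinted genes Magel2, Ndn and Nnat were at -1.23, -1.21 and -1.10. Single genes of other groups were Fgfbp3 at -1.56, Psmb8 at -1.40, Nt5e at -1.25 and Vegfa at -1.23.

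Of the genes that moved upward, Timm8a2 changed by 2.93, Capn3 by 2.70, Tspan8 by 2.12 and Anxa1 by 2.02. Eprn changed by 1.85, Plvap by 1.83, Dusp27 by 1.77, Ddc by 1.69, Ttn by 1.59, Aass by 1.55, Enox1 by 1.53, Fgfbp1 by 1.52 and Fam183b by 1.51. Dusp4 changed by 1.36, with a spread between arrays at day 0 that was wide in both lines (SD 0.70 in WT and 0.79 in SCR). That of Anxa1 at day 0 was wide as well (SD 0.66 in WT and 0.89 in SCR). Bnc2 changed by 1.34, Dnmt3l by 1.27, Nr0b1 by 1.08, Mageb16 by 1.07 and Manba by 1.06. Rhox5, lower in SCR on both days, changed by 1.11 as its gap narrowed.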

How the results depend on the processing

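Of the 72 named genes past the threshold at day 2, 49 kept their call in every alternative run for them (up to 17), 23 lost it in at least 1 and none changed direction, and none of the 22 named genes not past it came to pass. The changes of the fold rule were not among these, and with no minimum fold named genes such as Sox2 and Nanog pass as well. Further called list members, such as Gbx2, Nes, Pax6 and Grhl2, were not among the 72. The higher counts of the neural and the formative list, held by Pax6 and Grhl2, fell from 1 to 0 in some alternative. Without any array numbered 3 the calls of Eomes, Cubn, Fabp7, Usp17la and Rbp4 were among those lost. A further probe set each of P2rx7, Zic1, Ocln, Btg2, Uba1y and Arg2 did not pass. The day 2 count of 596 probe sets was 529 after quantile normalisation, 561 after median centring, 590 with array weights and 553 without any array numbered 3, and it ranged from 541 to 660 (198 higher, 183 to 215; 398 lower, 354 to 449) when single arrays were left out. The share of calls that were higher was 33.2%, and 43.7% after median centring, which moved the median of all probe sets to 0.06. Counts depended most on the fold rule: with limma's test against 2-fold (treat) 64 remained (22 higher, 42 lower), and with no minimum fold 5654 passed (2369 higher, 3285 lower). The change between days 0 and 2 counted 569 probe sets, 7 with treat, 2913 with no minimum fold, 150 without arrays numbered 3, and 454 to 684 when single arrays were left out. The change between days 2 and 4 counted 2720, 951 with treat, 8659 with no minimum fold, 1807 over the brightest 60% of probe sets, and 2629 to 2898 with single arrays left out. The smaller number over the brightest probe sets comes in part from fewer probe sets tested, and the other causes were not tested. Samples of the same replicate number deviated together with correlations of 0.211, 0.121 and 0.0566, each best with its own number, but neither the labels nor the methods say what the number stands for. Fits with a replicate block gave 596 probe sets over all arrays and 593 over the 6 arrays alone, as did those 6 without it (593), and no count of calls moved by over 1.5 times. No depth applies to arrays, and signals near the lower quartile limit what can be measured.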
